A study of Mus musculus with 9 samples.

Results

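The Bcl2 family decides whether the outer membrane of the mitochondrion stays intact or is opened to start cell death, and 10 of its genes were followed here in mouse embryos at the 2-cell stage. The genes were chosen by name from the family: the anti-apoptotic Bcl2, Bcl2l1, Bcl2l10 and Mcl1, the effectors Bax and Bak1, and the BH3-only genes Bid, Bad, Bcl2l11 and Bbc3. All 10 were among the 24454 genes of the deposited count table, and 9 of them, all but Bcl2, had enough counts to be among the 16964 genes tested. RNA was sequenced from 9 libraries of embryos of ICR, an outbred mouse stock, grown in vitro from zygotes, with 3 embryos pooled in each library. There were 3 libraries in each of 3 groups: a control group for which no treatment is named, embryos loaded with high glucose (the high glucose group), and embryos that had both the glucose load and a rat serum named ZGW (the ZGW serum group). The labels explain neither ZGW nor the glucose and serum doses. No label mentions plain rat serum in the other 2 groups, so effects of ZGW and of serum as such cannot be told apart. The matings behind the embryos are not named either, so p-values measure the spread between these pools, which may be partly technical.

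In a living cell the anti-apoptotic proteins hold the effectors Bax and Bak in check, and the BH3-only proteins, which report stress or damage, occupy the anti-apoptotic proteins or activate the effectors directly. Once active, Bax and Bak form pores through which cytochrome c leaves the mitochondrion, and cytochrome c then assembles the caspase-activating apoptosome with Apaf1. Oocytes pass a large store of maternal mRNA to the early embryo, and Bcl2l10 (also called Diva or Boo) is known for its high level in the oocyte. Control of these proteins by binding and phosphorylation is not seen in RNA counts.

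Library totals ran from 11934924 to 16916343 counts. All 10 markers of the 2-cell stage and all 10 maternal oocyte markers had counts in every library. The 13 markers of the cumulus and granulosa cells around the oocyte summed to between 4.02 and 26.0 CPM, and none of them averaged 10 CPM or more. Their sums were 11.8 to 26.0 CPM in control, 6.27 to 13.4 in the high glucose group and 4.02 to 7.69 in the ZGW serum group. Among them Igfbp5 was picked out after its values were seen. It had 165 counts in control, 1 in the high glucose group and 4 in the ZGW serum group. Amh went the other way, with 22, 28 and 69 counts in the same order. Of the 4 markers of this list that were tested, 3 were lower and 1 higher than control in the high glucose group. The same numbers held for the ZGW serum group, and no difference passed the tests given below. CPM are counts per 1000000 of the library total, scaled by TMM factors, which take most genes as unchanged. The 9 blood markers summed to between 86.3 and 530 CPM, most of it from the alpha-globin pair Hba-a1 and Hba-a2, whose counts were identical in each library. This pair shares 72.3% and 89.3% of its stretches of 50 bases with other genes, most often each other, so the sum may hold the same reads in both. Of the other blood markers, Cd52 averaged 10.2 CPM, Lyz2 1.78, Tyrobp 0.541, Alas2 0.325, Hbb-bs 0.132, Hbb-bt 0.109 and Ptprc 0.0059. In pooled embryos, fewer cells of a type and less RNA per cell cannot be told apart.

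The bases before the start sites of Bcl2l11 and Mcl1 are shown first, because these are the members with the lowest p-values in the test of any difference among the groups. They are the 250 bases before the annotated RefSeq start (build GRCm38.p6, both plus strand), chr2:128125788-128126037 for the first listed Bcl2l11 start and chr3:95658471-95658720 for Mcl1. Capitals mark matches, on either strand, to a searched motif. One motif was TGTTTAC, the core bound by FOXO factors, which are known to activate Bcl2l11. Another was the GC box, GGGCGG. The others searched were the CCAAT box (by those letters), the TATA box as TATAAA, and the cyclic AMP response element TGACGTCA. No marked match overlaps another.
Bcl2l11: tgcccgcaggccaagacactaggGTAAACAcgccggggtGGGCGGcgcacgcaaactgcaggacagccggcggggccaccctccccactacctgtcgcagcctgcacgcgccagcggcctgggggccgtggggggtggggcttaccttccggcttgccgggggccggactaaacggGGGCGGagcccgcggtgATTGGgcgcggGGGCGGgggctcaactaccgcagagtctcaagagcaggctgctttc
Mcl1: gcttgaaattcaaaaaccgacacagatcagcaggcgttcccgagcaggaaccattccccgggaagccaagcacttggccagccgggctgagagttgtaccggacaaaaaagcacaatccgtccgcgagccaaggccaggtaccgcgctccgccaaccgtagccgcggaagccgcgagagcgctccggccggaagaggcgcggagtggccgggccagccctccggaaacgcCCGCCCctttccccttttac
The Bcl2l11 window holds 1 FOXO core on the minus strand, beginning 227 bases before the start, 3 GC boxes and 1 CCAAT match. Of the 32851 windows of the same length in the table, 3.17% hold the FOXO core, 32.7% a GC box and 33.9% CCAAT. A second listed Bcl2l11 start, with the window chr2:128127325-128127574, is not printed: it holds 2 GC boxes, 2 CCAAT matches and no FOXO core. The FOXO core is not particular to Bcl2l11 among the members. A listed window of Bbc3, whose groups overlapped, also holds it, on the plus strand and beginning 167 bases before the start. The Mcl1 window holds 1 GC box, 20 bases before the start, and no match to the other 4 motifs. These are matches of letters, and binding was not measured.

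One gene held nearly all of the counts of the 10 genes followed. The 16 other Bcl2 relatives described further below are not in these shares and summed to 290 to 692 CPM per library. Bcl2l10 (chromosome 9, 75347758 to 75351632, GRCm38) made up 92.8% ± 1.64 of the counts of the 10 genes in control, 93.9% ± 3.42 in the high glucose group and 92.8% ± 4.72 in the ZGW serum group (SD over n = 3). By mean CPM it ranked 49 among the genes tested, while the next member, Mcl1, ranked 3008 and Bcl2l11 ranked 3238. The 10 genes together held 0.205% ± 0.0561 of all counts in control, 0.239% ± 0.0541 in the high glucose group and 0.184% ± 0.0615 in the ZGW serum group (SD over n = 3), and the groups overlapped.

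Per kilobase of exon, the order of the mean levels over the 9 libraries was Bcl2l10, Mcl1, Bcl2l11, Bax, Bcl2l1, Bid, Bbc3, Bad, Bak1 and Bcl2. Bcl2l10 was at 740 to 2288 CPM per kb and Mcl1 at 6.18 to 26.0, so their ranges did not meet. The ranges of all other neighbours in the order overlapped. Within single libraries Mcl1 was above Bcl2l11 in 9 of 9 and Bcl2l1 above Bid in 9 of 9, whereas Bcl2l11 was above Bax in 5 of 9 and Bax above Bcl2l1 in 4 of 9. These levels rest on exons merged over all annotated transcripts. With the length of the longest transcript in their place, Bcl2l1 passed Bax and Bad passed Bbc3 in the order, and the other members kept their places.

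**Figure D1:**
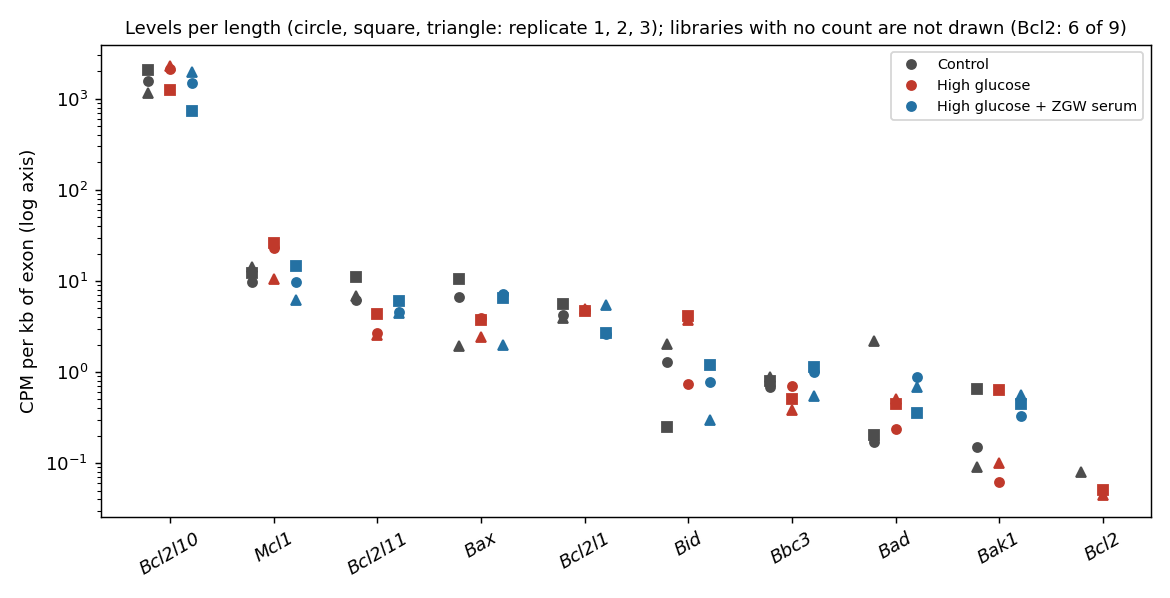
Level of each family member per kilobase of merged exon (CPM per kb, log axis) in each of the 9 libraries, by group. Bcl2l10 sits between 740 and 2288 in every library, far above Mcl1 at 6.18 to 26.0, and Bcl2, with no count in 6 of 9 libraries, is drawn only where it had counts.

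Of the 9 members tested, 0 passed over all genes in any of the 3 comparisons by the quasi-likelihood test of edgeR with p-values adjusted by Benjamini-Hochberg, where the share called among all genes was 0% in each. The test of any difference among the 3 groups also called 0 members against 0% of all genes. At an unadjusted p under 0.05 there was 1 member between high glucose and control (Bcl2l11) against 7.39% of all genes. Between ZGW serum and high glucose there was 1 (Mcl1) against 8.68%. Between ZGW serum and control there were 0 members against 9.86%, and in the test of any difference there was 1 (Bcl2l11) against 9.24%. Groups did not overlap for 1 of 9 members between high glucose and control, where 13.7% of all genes did not. The same count was 1 of 9 between ZGW serum and high glucose against 17.4%, and 1 of 9 between ZGW serum and control against 16.3%. That member was Bcl2l11 each time, and these shares of 9 lie near the background. DESeq2 called 1 member, Bcl2l11, between high glucose and control, where it called 129 of the 16964 genes fitted. It called 0 members in the other tests, against 241 genes between ZGW serum and high glucose, 348 between ZGW serum and control and 373 for any difference. With limma-voom 0 members were called in each.

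**Figure D2:**
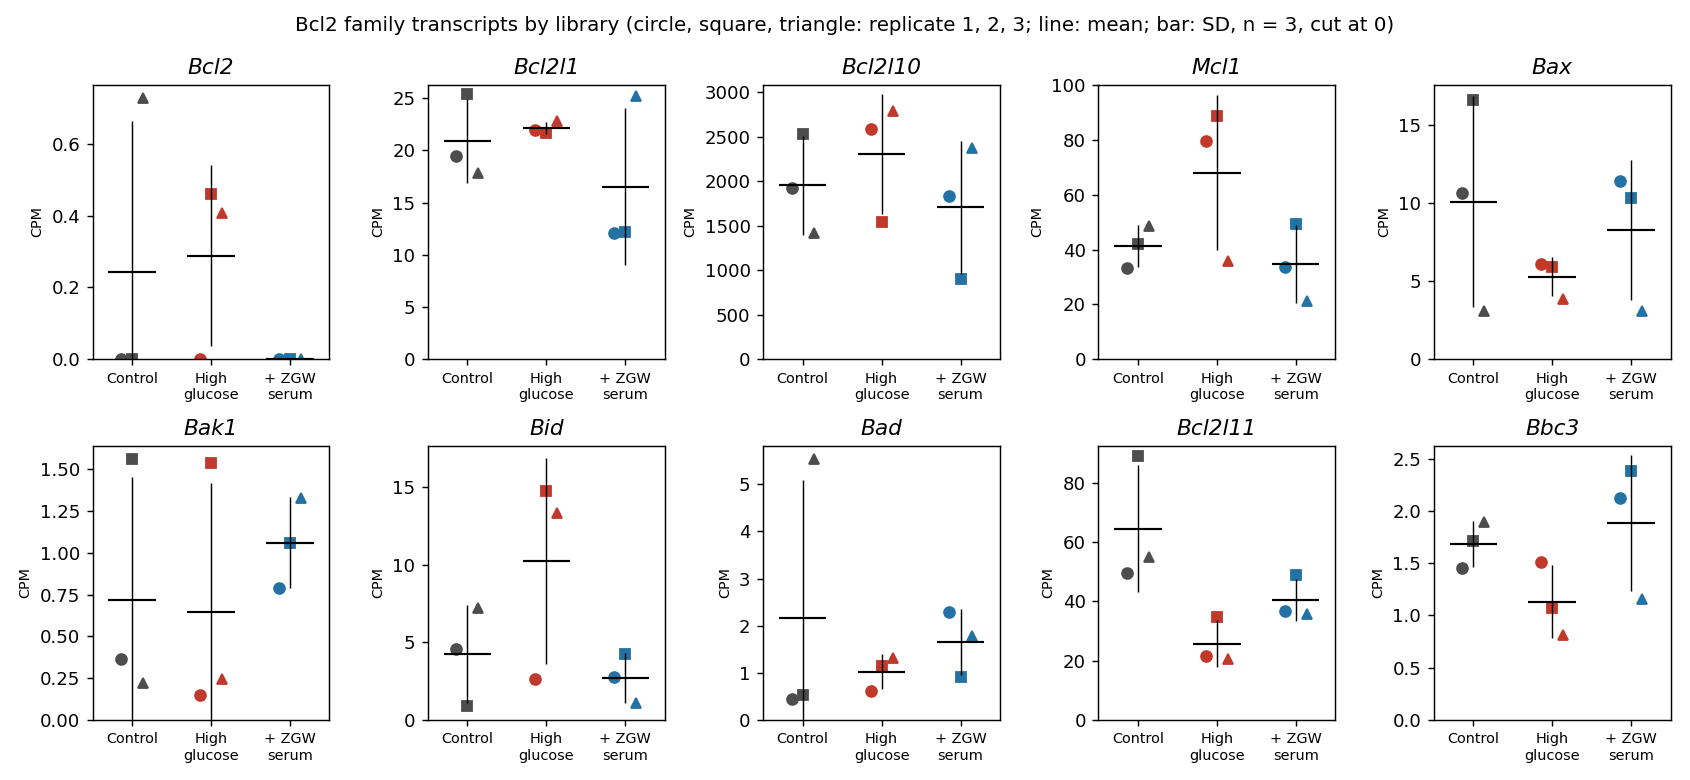
CPM of the 10 members in each library (symbols, by replicate number) with the mean and SD of each group of 3. The high glucose libraries of Bcl2l11 lie between 20.4 and 34.8 CPM, below all 6 other libraries, while the groups of the other members overlap.

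Among the anti-apoptotic genes, Bcl2l10, grouped with the guards although reports on its action in mouse cells differ, was high in every library. It had 1918, 2529.6 and 1418 CPM in the control libraries, 2588, 1540.0 and 2792 in the high glucose libraries and 1831, 903 and 2378 in the ZGW serum libraries. The lowest value, in ZGW serum replicate 2, and the highest, in high glucose replicate 3, both belonged to glucose-loaded embryos, and all 3 groups overlapped. Its log2 fold change was 0.24 ± 0.37 (SE) between high glucose and control and -0.44 ± 0.37 between ZGW serum and high glucose (edgeR adjusted p = 0.928 and 0.793). The 95% interval of the first difference ran from -0.59 to 1.06, so a level higher by a factor of 2 lay just inside it.

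Mcl1 encodes a short-lived guard of the mitochondrion that early embryos cannot develop without. Its level was 33.4, 42.0 and 48.8 CPM in the control libraries, 79.6, 88.8 and 35.8 in the high glucose libraries and 33.6, 49.5 and 21.1 in the ZGW serum libraries. High glucose replicates 1 and 2 were above all other libraries, and replicate 3 lay within the range of the other groups. The log2 fold change was 0.72 ± 0.43 (SE) for high glucose against control and -0.97 ± 0.43 for ZGW serum against high glucose, neither past the threshold (edgeR adjusted p = 0.762 and 0.574). Both comparisons share the high glucose libraries.

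Bcl2l1, which encodes the guard Bcl-xL, had 19.4, 25.5 and 17.9 CPM in the control libraries, 22.0, 21.7 and 22.8 in the high glucose libraries and 12.1, 12.2 and 25.2 in the ZGW serum libraries. The high glucose libraries lay close together, and 2 of the 3 ZGW serum libraries were below all others while the last was near the top. Between ZGW serum and high glucose the log2 fold change was -0.42 ± 0.44 (SE; edgeR adjusted p = 0.835).

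Bcl2, the founding member of the family, was close to absent. It had 10 counts in control replicate 3, 6 and 5 counts in high glucose replicates 2 and 3, and 0 in the other 6 libraries. The 0 counts in the 3 ZGW serum libraries allow a level of up to 0.0733 CPM over the group, which covers counting error only. It did not pass the filter on low counts and was not tested. On the opposite strand 558 of its exonic bases are shared with the antisense gene D630008O14Rik, so its few reads could come from either gene if counting ignored strand.

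Of the effectors, Bax stood above Bak1 per kilobase of exon, at 6.41 ± 4.30 against 0.297 ± 0.307 CPM per kb in control (SD over n = 3). Bax, the effector that moves from the cytosol to the mitochondrion, had 10.6, 16.6 and 3.06 CPM in the control libraries, 6.12, 5.92 and 3.83 in the high glucose libraries and 11.4, 10.3 and 3.11 in the ZGW serum libraries. Replicate 3 was the lowest library in each of the 3 groups, and the groups overlapped. The log2 fold change was -0.93 ± 0.77 (SE) for high glucose against control and 0.65 ± 0.76 for ZGW serum against high glucose (edgeR adjusted p = 0.835 and 0.861). Bax shares 8.51% of its stretches of 50 bases with other genes, most often the overlapping gene Gm45808.

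Bak1, the effector that resides in the mitochondrial membrane, had 5, 21 and 3 counts in the control libraries, 2, 20 and 3 in the high glucose libraries and 10, 20 and 15 in the ZGW serum libraries. In the control and high glucose groups a single library, replicate 2, held most of the counts. The log2 fold change of high glucose against control was -0.15 ± 1.05 (SE), 1.12 without control replicate 2 and -1.84 without high glucose replicate 2. The 95% interval ran from -2.46 to 2.17. Its exons share 614 bases with those of Ggnbp1 on the other strand.

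Of the 4 BH3-only members followed here, Bcl2l11 had the highest mean level and was the one whose groups separated. Bcl2l11 encodes Bim, a strong activator of death that binds all the main anti-apoptotic proteins. Its level was 49.5, 89.0 and 55.0 CPM in the control libraries, 21.7, 34.8 and 20.4 in the high glucose libraries and 36.8, 48.8 and 35.8 in the ZGW serum libraries. Every high glucose library lay below every other library, and every ZGW serum library lay between the 2 other groups. Among all genes tested, groups did not overlap for 13.7% between high glucose and control. The shares were 17.4% between ZGW serum and high glucose and 16.3% between ZGW serum and control. How many genes keep all 3 groups apart was not counted. The means were 64.5 ± 21.4, 25.6 ± 7.96 and 40.5 ± 7.21 CPM in control, high glucose and ZGW serum (SD over n = 3).

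The log2 fold change of Bcl2l11 was -1.33 ± 0.37 (SE) for high glucose against control, with a 95% interval from -2.15 to -0.51. edgeR's quasi-likelihood test gave an adjusted p of 0.627, so it did not pass over all genes, while DESeq2 gave a log2 fold change of -1.35 and an adjusted p of 0.0410. Over the 17 alternatives the value kept its sign, from -1.64 to -1.02, with adjusted p from 0.0410 to 0.845. The smallest difference came without control replicate 2, the highest control library. ZGW serum against high glucose gave 0.66 ± 0.37 and ZGW serum against control -0.67 ± 0.37 (edgeR adjusted p = 0.659 and 0.579), with intervals that both include 0. Bcl2l11 overlaps no other annotated exon and shares 0.135% of its 50-base stretches with other genes.

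Beside Bcl2l11, the oocyte and 2-cell marker lists were also compared between groups, and 0 of their genes passed over all genes (edgeR). Of the 10 maternal oocyte markers, 6 had fold changes above 0 for high glucose against control (median 0.16), and for ZGW serum against high glucose 5 were above and 5 below 0 (median 0.02). Their summed level was mostly Dppa3, which was at 13705 to 21669 CPM in control, 7707 to 12448 in the high glucose group and 10721 to 32803 in the ZGW serum group. The sum of all 10 ran from 14929 to 23298.5 CPM in control, 10177 to 14802 in the high glucose group and 12108 to 35654 in the ZGW serum group. Without Dppa3, which was set aside after its values were seen, the other 9 summed to 1224 to 1632 CPM, 1729 to 2470.0 and 1387 to 2852 in that order, so high glucose was below control in the full sum and above it without Dppa3. Of the 10 markers of the 2-cell stage, 9 were above 0 for high glucose against control (median 0.36) and 10 below 0 for ZGW serum against high glucose (median -1.46). Among all genes tested, 51.0% and 49.9% were below 0 in these comparisons. The 2-cell marker sums were 4195 to 10924 CPM in control, 7205 to 14315 in the high glucose group and 2131 to 5014 in the ZGW serum group. Most of each sum came from Zscan4c, Zscan4d and Zscan4f. These share 85.5%, 49.6% and 86.8% of their 50-base stretches with other genes, so the markers are not independent. The part of these shifts in the Bcl2l11 values was not tested.

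**Figure D3:**
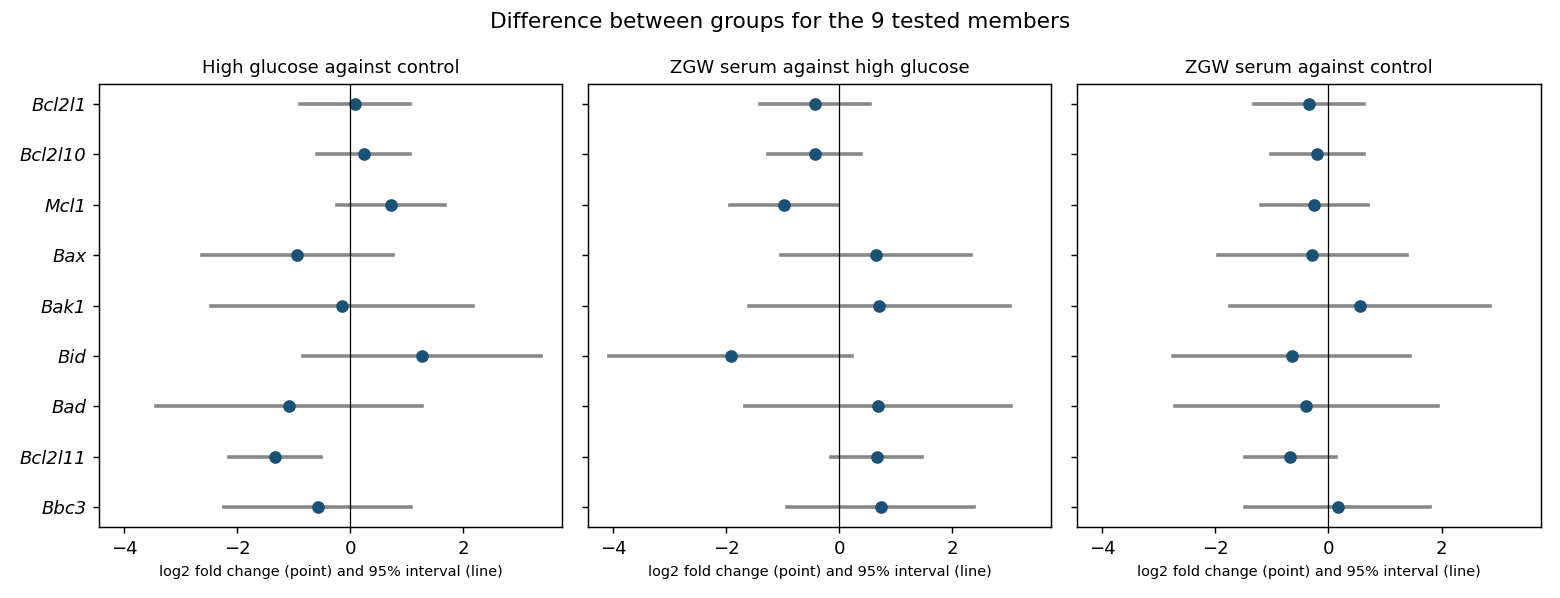
log2 fold change (point) and 95% interval (line) of the 9 tested members from edgeR's quasi-likelihood fit, in the 3 comparisons. The interval lies wholly below 0 for Bcl2l11 between high glucose and control (-2.15 to -0.51) and for Mcl1 between ZGW serum and high glucose (-1.92 to -0.02), and includes 0 elsewhere. None of these differences passed over all genes.

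Bid links death receptors to mitochondria, since caspase 8 cleaves its protein into the active form. It varied widely within groups, with 4.59, 0.893 and 7.22 CPM in the control libraries, 2.64, 14.8 and 13.4 in the high glucose libraries and 2.76, 4.25 and 1.06 in the ZGW serum libraries. High glucose replicates 2 and 3 were the highest libraries and replicate 1 lay among the others. The log2 fold change was 1.27 ± 0.95 (SE) for high glucose against control and -1.92 ± 0.97 for ZGW serum against high glucose (edgeR adjusted p = 0.812 and 0.614). The fitted differences of Bid had the opposite sign to those of the 3 other BH3-only members in both comparisons. Its exons share 628 bases with those of Bcl2l13 on the opposite strand, another relative of the family.

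Bad is a sensor of growth factor withdrawal that phosphorylation keeps inactive. It had 6, 7 and 76 counts in the control libraries, 8, 15 and 16 in the high glucose libraries and 29, 17 and 20 in the ZGW serum libraries. Control replicate 3 alone set the control mean: the log2 fold change of high glucose against control was -1.08 ± 1.07 (SE) with it and 1.04 without it. Against control, ZGW serum gave -0.39 ± 1.05, and 1.73 without that library (edgeR adjusted p = 0.934 with it). The exons of Bad share 524 bases with those of Gpr137 on the opposite strand.

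Bbc3 encodes Puma, a target of p53. It had 20, 23 and 26 counts in the control libraries, 20, 14 and 10 in the high glucose libraries and 27, 45 and 13 in the ZGW serum libraries. The groups overlapped, with a log2 fold change of -0.57 ± 0.75 (SE) for high glucose against control and 0.73 ± 0.75 for ZGW serum against high glucose (edgeR adjusted p = 0.910 and 0.831).

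Read by role, the fold changes of high glucose against control were above 0 for 3 of 3 tested anti-apoptotic members (median 0.24) and below 0 for 2 of 2 effectors (median -0.54) and 3 of 4 BH3-only members (median -0.83). Of all genes tested 51.0% were below 0 and the median was -0.02. For ZGW serum against high glucose, which shares the high glucose libraries, 3 of 3 anti-apoptotic members were below 0 (median -0.44), and 2 of 2 effectors and 3 of 4 BH3-only members were above 0 (medians 0.68 and 0.67). Between ZGW serum and control 3 of 3 anti-apoptotic members, 1 of 2 effectors and 3 of 4 BH3-only members were below 0. None of these members passed over all genes, and the directions of Bcl2l1, Bak1 and Bad for high glucose against control turned when a single library was left out. For ZGW serum against control the directions of Bcl2l10, Mcl1, Bax, Bad and Bbc3 turned in such fits.

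The ratio of Bcl2l11 to Mcl1 counts, a pair chosen after its values were seen, does not depend on scaling between libraries. The control libraries had 148, 212 and 113 Bcl2l11 counts per 100 Mcl1 counts, the high glucose libraries 27.2, 39.2 and 57.0 and the ZGW serum libraries 109.6, 98.6 and 169.7. Every high glucose library was below every other library, and the control and ZGW serum libraries overlapped. The means were 158 ± 50.3, 41.2 ± 15.0 and 126 ± 38.3 (SD over n = 3). ZGW serum replicate 3 had the lowest Mcl1 of all 9 libraries and the highest ratio of its group. The ratio has no test, because the pair was picked from these data.

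**Figure D4:**
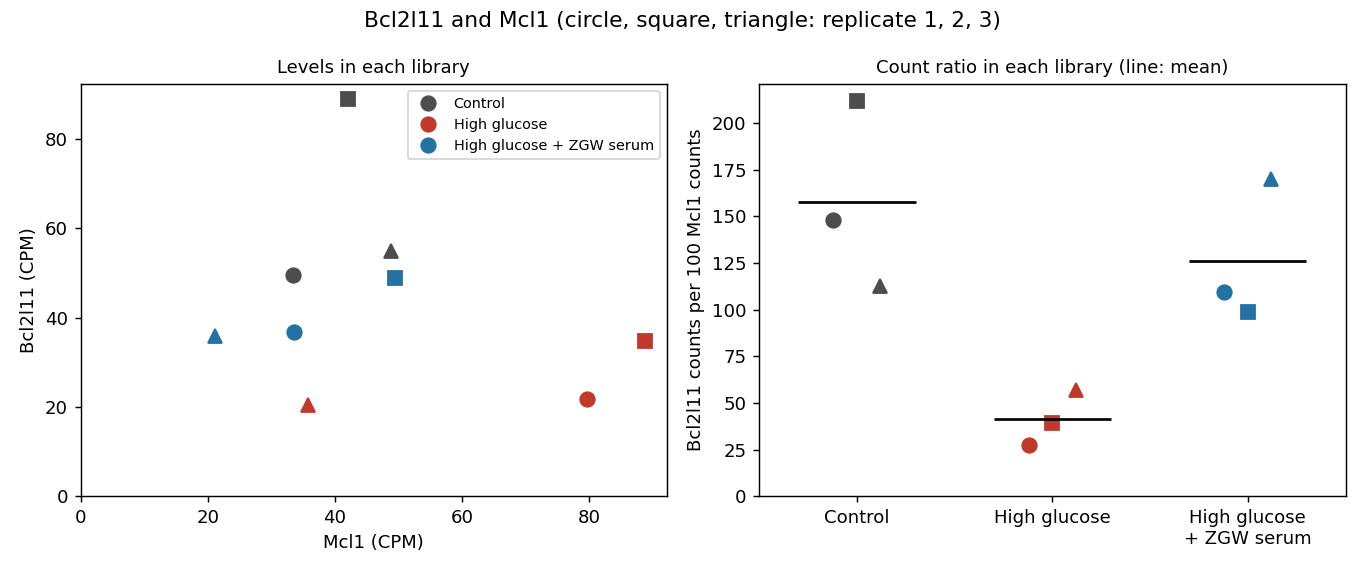
Left, Bcl2l11 against Mcl1 (CPM) in each library; right, Bcl2l11 counts per 100 Mcl1 counts by group, with the mean. The high glucose libraries lie at 27.2 to 57.0 and all others at 98.6 or above. The pair was chosen after its values were seen, so this gap is a description with no test.

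The genes that act with the family were taken from 6 lists, and 0 of their 79 tested genes passed over all genes in any comparison (edgeR's quasi-likelihood test). Of 16 other Bcl2 relatives, 14 were tested: 10 had fold changes above 0 for high glucose against control (median 0.22), 8 for ZGW serum against high glucose (median 0.07) and 7 for ZGW serum against control (median -0.08). Bnip3l encodes a receptor that marks mitochondria for removal by autophagy. It had 268, 213 and 192 CPM in the control libraries, 289, 209 and 273 in the high glucose libraries and 111, 121 and 179.8 in the ZGW serum libraries, and all 3 of the last were below the other 6. Its log2 fold change of ZGW serum against high glucose was -0.90 ± 0.27 (SE; edgeR adjusted p = 0.465), with 20.8% of its 50-base stretches shared with other genes, most often its pseudogene. Its relative Bnip3 averaged 166 ± 147, 182 ± 90.1 and 90.8 ± 33.5 CPM in control, high glucose and ZGW serum (SD over n = 3). In the same order Bcl2l13 averaged 28.1 ± 6.53, 38.1 ± 15.0 and 39.8 ± 1.79 CPM and the guard Bcl2l2 2.05 ± 1.42, 4.21 ± 2.78 and 2.28 ± 2.77.

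All 13 genes of the mitochondrial membrane and of the proteins released from it were tested. Fold changes were above 0 for 6 between high glucose and control, 4 between ZGW serum and high glucose and 6 between ZGW serum and control (medians -0.13, -0.26 and -0.16). Cycs, which encodes cytochrome c, had 464, 277 and 304 CPM in the control libraries, 271, 183 and 214 in the high glucose libraries and 313, 306 and 449.7 in the ZGW serum libraries. All 3 high glucose libraries were the lowest, with a log2 fold change of -0.65 ± 0.29 (SE) against control and of 0.68 ± 0.29 for ZGW serum against high glucose (edgeR adjusted p = 0.672 and 0.569). Of its 50-base stretches 25.9% are shared with other genes. Diablo, which frees caspases from their inhibitors, averaged 179 ± 53.2, 119 ± 8.22 and 186 ± 43.2 CPM in control, high glucose and ZGW serum (SD over n = 3), with 17.6% of its stretches shared, most often with the overlapping gene Gm49027. The channels of the outer membrane had their lowest means in the ZGW serum group, with Vdac1 at 159 ± 40.1, 119.5 ± 43.8 and 82.1 ± 4.93 CPM and Vdac3 at 286 ± 75.3, 333 ± 48.1 and 208 ± 60.1 CPM in the same order, neither past the threshold.

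Downstream of cytochrome c, 11 of 13 apoptosome and caspase genes were tested, with 5 above 0 for high glucose against control, 6 for ZGW serum against high glucose and 8 for ZGW serum against control (medians -0.13, 0.16 and 0.26). Apaf1, the scaffold of the apoptosome, had 121, 97.2 and 88.7 CPM in the control libraries, 85.0, 51.9 and 143 in the high glucose libraries and 165, 156 and 128 in the ZGW serum libraries. High glucose replicate 3 lay among the ZGW serum libraries and the other 2 below them, with a log2 fold change of ZGW serum against high glucose of 0.69 ± 0.35 (SE; edgeR adjusted p = 0.617). Casp8, which cleaves Bid, was at 67.3 CPM in ZGW serum replicate 3 and at 5.36 to 23.2 CPM in the other 8 libraries. Its difference of ZGW serum against control was 0.91 on the log2 scale and -1.34 without that library. Casp2 averaged 6.43 ± 5.47, 3.61 ± 3.30 and 7.53 ± 4.32 CPM in control, high glucose and ZGW serum (SD over n = 3), and its groups overlapped.

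Of 10 inhibitors of apoptosis 9 were tested, with 5 above 0 for high glucose against control (median 0.03), 5 for ZGW serum against high glucose (median 0.09) and 7 for ZGW serum against control (median 0.43). Birc3, which encodes a ubiquitin ligase of death receptor complexes, had 89.2, 101 and 123 CPM in the control libraries, 256, 156 and 197 in the high glucose libraries and 133, 85.0 and 295 in the ZGW serum libraries. The high glucose libraries were above all control libraries, with a log2 fold change of 0.96 ± 0.42 (SE; edgeR adjusted p = 0.672), and the ZGW serum libraries spanned both. The giant inhibitor Birc6 averaged 27.9 ± 16.3 CPM in control against 12.4 ± 3.42 in the high glucose group, Xiap 43.4 ± 6.65 against 42.8 ± 16.3, and Naip1 9.06 ± 7.37 against 15.6 ± 7.17 (SD over n = 3). Naip6, named after its values were seen, had 3, 0 and 1 counts in the control libraries, 45, 55 and 18 in the high glucose libraries and 0, 2 and 9 in the ZGW serum libraries. It shares 21.5% of its 50-base stretches with other genes, most often Naip1, and its adjusted p by edgeR was 0.627 between high glucose and control.

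In the death receptor arm 10 of 12 genes were tested, with 5 above 0 for high glucose against control, 6 for ZGW serum against high glucose and 5 for ZGW serum against control (medians -0.20, 0.14 and -0.06). Cflar, which blocks caspase 8 at the receptor, had 40.3, 64.0 and 35.0 CPM in the control libraries, 87.0, 75.3 and 47.1 in the high glucose libraries and 39.6, 33.2 and 46.0 in the ZGW serum libraries. The lowest high glucose library lay just above the highest with ZGW serum, and the log2 fold change between those groups was -0.82 ± 0.36 (SE; edgeR adjusted p = 0.574). The adaptor Fadd averaged 5.18 ± 3.59, 1.44 ± 1.44 and 2.49 ± 2.79 CPM in control, high glucose and ZGW serum (SD over n = 3). In the same order the kinase Ripk1 averaged 8.73 ± 8.68, 15.7 ± 6.65 and 14.9 ± 5.07 CPM and the receptor Tnfrsf10b 1.82 ± 1.51, 1.25 ± 1.08 and 3.74 ± 3.24 CPM.

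All 22 genes whose products bind, modify or control family members were tested. Fold changes were above 0 for 12 between high glucose and control, 9 between ZGW serum and high glucose and 10 between ZGW serum and control (medians 0.05, -0.08 and -0.05). Dynein light chains tether Bim and its relative Bmf to the cytoskeleton. Dynll2 had 79.8, 93.3 and 96.4 CPM in the control libraries, 37.4, 56.9 and 49.9 in the high glucose libraries and 79.6, 106 and 56.7 in the ZGW serum libraries. The high glucose libraries were below all control libraries, with a log2 fold change of -0.90 ± 0.31 (SE; edgeR adjusted p = 0.627). Dynll1 averaged 948 ± 136, 912 ± 177 and 1564 ± 256 CPM in control, high glucose and ZGW serum (SD over n = 3), and all 3 ZGW serum libraries were above the other 6.

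The 14-3-3 proteins hold phosphorylated Bad in the cytosol. Ywhaz, one of their genes, had 1225, 1159.7 and 1073 CPM in the control libraries, 1455, 934 and 1072 in the high glucose libraries and 708, 504 and 649 in the ZGW serum libraries, and all 3 of the last were below the other 6. Between ZGW serum and high glucose its log2 fold change was -0.89 ± 0.24 (SE; edgeR adjusted p = 0.408). DESeq2 called it at an adjusted p of 0.0495, as 1 of 241 genes in that comparison. It shares 15.2% of its 50-base stretches with other genes. Ywhae averaged 399.5 ± 109, 531 ± 71.2 and 289 ± 86.9 CPM in control, high glucose and ZGW serum (SD over n = 3), with a log2 fold change of -0.88 ± 0.30 (SE) for ZGW serum against high glucose.

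**Figure D5:**
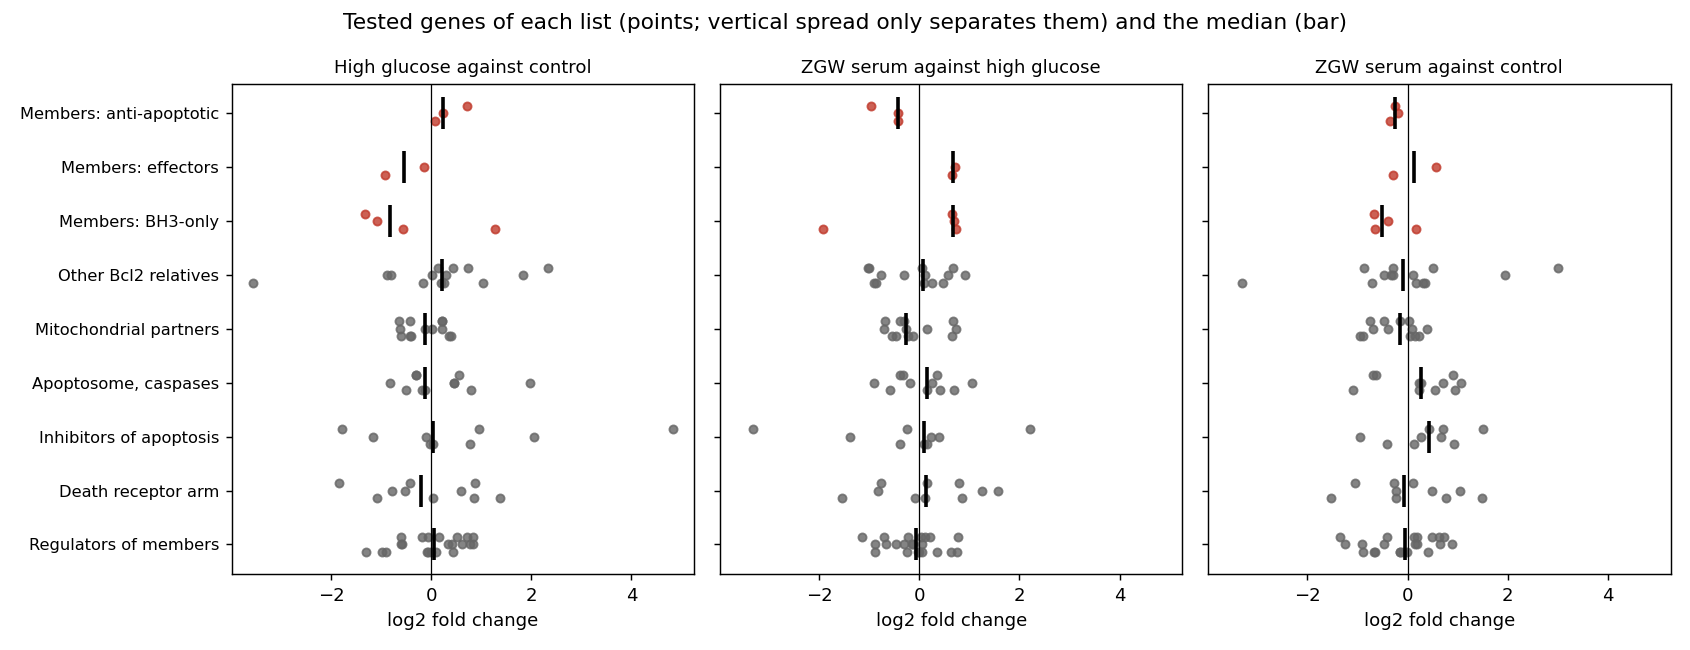
log2 fold changes of all tested genes in each list (points) with the list's median (bar), in the 3 comparisons, with family members in red. The medians of the 6 lists of other genes lie between -0.26 and 0.43, and 0 of the genes drawn passed the threshold after adjustment over all genes (edgeR).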

How the data were processed

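Per the labels, 9 libraries of pooled 2-cell embryos were sequenced; the authors deposited one table of raw counts, with gene symbols as rows. The submitters' processing notes name Trim Galore and mm10. No source used here names the aligner, counter, annotation or strand setting. Groups and replicate numbers came from the labels. The members and lists were chosen with earlier results of these data known.

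All 9 libraries were fitted together with edgeR 4.0.16 (R 4.3.3): TMM factors, filterByExpr with min.count 10, robust quasi-likelihood, 1 mean per group, Benjamini-Hochberg adjustment over 16964 genes and a threshold of 0.05. Alternatives were RLE factors, DESeq2 1.42.0, limma-voom (limma 3.58.1) with quality weights, no filter, 10 counts in 6 libraries, the 2 groups compared only, the replicate number as a block, each library left out, and control replicate 1 and ZGW serum replicate 3 left out as a pair. The other genes named were, per list, up to 4 of lowest p-value in the test of any difference with a mean of at least 2 CPM. One gene that this rule names is not reported here. Exon lengths, overlaps and shared 50-base stretches came from GENCODE on GRCm38 (mm10), and RefSeq upstream sequences were found for 9 of 10 members. In simulated data for high glucose against control (3 runs, 16494 genes in the first), edgeR found 3.33% of genes set to differ by a factor of 2, 40.9% at 4, 78.0% at 8 and 94.7% at 16. The genes set to differ averaged 10 CPM or more, and high glucose was set apart from both other groups. These rates therefore do not cover the lower tested members Bax, Bid, Bad, Bbc3 and Bak1. Libraries of a group always differed beyond sampling noise (chi-square per degree of freedom 50.9 to 136). Intervals on counts cover counting error only.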

Additional observations from a re-analysis of the deposited data

How the results depend on the processing

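edgeR's quasi-likelihood test called 0 genes in each comparison in every fit that left out 1 library (0 to 0), with RLE factors and with the replicate block. DESeq2 called 129 genes between high glucose and control, of which 1 was a family member (Bcl2l11), 241 between ZGW serum and high glucose, 348 between ZGW serum and control and 373 in the test of any difference, with 0 members among the last 3. limma-voom called 1 gene between ZGW serum and control and 1 in the test of any difference, and edgeR called 1 between ZGW serum and control without a filter and 1 with the stricter filter. None of these 4 calls was a member.

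The fold changes of some members, and that of Casp8, turned in sign under some of the alternatives. Leaving out 1 library, high glucose against control ran from -0.052 to 0.25 for Bcl2l1, from -1.84 to 1.12 for Bak1 and from -1.57 to 1.04 for Bad. ZGW serum against control ran from -0.49 to 0.075 for Bcl2l10, from -0.63 to 0.028 for Mcl1, from -0.75 to 0.27 for Bax, from -0.88 to 1.73 for Bad, from -0.071 to 0.44 for Bbc3 and from -1.34 to 1.39 for Casp8. With control replicate 1 and ZGW serum replicate 3 both left out it was 0.16 for Bax and -1.18 for Casp8, and with limma-voom 0.57 for Bad and -0.47 for Casp8. With the replicate block it was 0.36 for Bad, and Bcl2l11 between high glucose and control was at -1.33 (adjusted p = 0.679). Whether the replicate numbers pair the libraries was not settled. The deviations of same-numbered libraries had correlations from -0.00648 to 0.104, and those of differently numbered libraries from -0.0950 to 0.0458. In 10 of 18 cases a library correlated best with its own number in another group. The block changed no call. The cause of each change was not tested.

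Scaling by RLE moved the median fold change over all genes from -0.02 to -0.04 between high glucose and control. Bak1 had fewer than 10 counts in 4 libraries and could not be fitted under the stricter filter, nor between high glucose and control with only those 2 groups. Bcl2, Bak1, Bad and Bbc3 held under 100 counts in every library; how far depth rather than the spread between libraries limits their tests was not tested.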

Other observations

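Likeness to a member was measured over the 6896 other genes that averaged 10 CPM or more and whose symbols are not predicted or clone names. Those whose log2 CPM was most like that of Bcl2l10 over the 9 libraries were Pik3c2b (Pearson correlation 0.98), which encodes a phosphoinositide kinase, Eif1b (0.95), which encodes a translation initiation factor, and Gnpda2 (0.95), which encodes a glucosamine-6-phosphate deaminase. Those most like Mcl1 were Cpeb2 (0.91), which encodes an RNA-binding regulator of polyadenylation, the splicing factor gene Srsf5 (0.90) and the poly(A) polymerase gene Papola (0.90). These are the highest of many correlations over the same 9 libraries, given as a description with no test.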
